A study of Rattus norvegicus with 4 samples.

Results

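Circular RNAs (circRNAs) of 5 rat host genes with roles in myeloid leukocytes are described here, namely the receptor genes Csf3r, Itgam, Sirpa and Lilrb3l and the kinase gene Syk. They comprise every listed circRNA whose host symbol is 1 of these 5, which gave 9 circRNAs of 4942 and 5 host genes of 2327. The 5 genes were chosen with their reads in these libraries known, after their higher counts in crushed nerve had been seen. The difference between crushed and sham nerve is therefore given as a description of the 9 circRNAs, with no test. Sprague-Dawley rats were operated on at postnatal week 6, and total RNA was taken from their sciatic nerve 24 h later. For the crush group, forceps were closed 2 times for 15 s on a 3 mm stretch, which was collected with 1 mm of nerve on either side. In the sham group the nerve was exposed and not crushed. There were 2 libraries in each group, and the labels do not say whether they came from separate animals.

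A circRNA is a closed RNA made when a downstream splice donor is joined back to an upstream acceptor, and it is recognised by reads that cross this back-splice junction. Neutrophils and monocytes are the leukocytes that enter an injured nerve early, and they carry the products of these genes. Csf3r encodes the receptor for granulocyte colony-stimulating factor, which drives neutrophil production and signals through JAK kinases and STAT factors. Itgam encodes integrin alpha M (CD11b), which pairs with the beta 2 integrin chain in the adhesion and complement receptor Mac-1. Syk encodes a tyrosine kinase that binds phosphorylated activation motifs (ITAMs) of Fc receptors and their adaptors and also acts downstream of leukocyte integrins. Sirpa encodes an inhibitory receptor of myeloid cells that binds CD47 and recruits the phosphatases SHP-1 and SHP-2. Lilrb3l is named for the leukocyte immunoglobulin-like receptors of subfamily B, whose members are inhibitory. In the RefSeq gene table of the assembly GRCr8 that symbol is a synonym of 2 genes, Pira2 and Pirb. Which gene of this family of close relatives is meant, and whether its product is inhibitory, was therefore not settled.

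The promoters of the hosts are shown because 4 of the 5 hosts were listed in both crush libraries and in neither sham library. A further reason is that Csf3r and Itgam are known targets of PU.1, an ETS-family factor of myeloid cells. RefSeq sequences for the assembly GRCr8 were matched by symbol for 3 of the 5 hosts, Csf3r, Syk and Itgam, and not for Sirpa and Lilrb3l. Each run below holds the 250 bases before the annotated start, 5′ to 3′ on the strand of the gene, with each match to GAGGAA, a core of PU.1 sites, or to its reverse complement in capitals. The windows are chr5:143582970-143583219 on the plus strand for Csf3r, chr17:12813274-12813523 on the minus strand for Syk and chr1:192089342-192089591 on the plus strand for Itgam, all in GRCr8. They cannot be set against the circRNA positions further on, which are in Rnor_6.0.
Csf3r: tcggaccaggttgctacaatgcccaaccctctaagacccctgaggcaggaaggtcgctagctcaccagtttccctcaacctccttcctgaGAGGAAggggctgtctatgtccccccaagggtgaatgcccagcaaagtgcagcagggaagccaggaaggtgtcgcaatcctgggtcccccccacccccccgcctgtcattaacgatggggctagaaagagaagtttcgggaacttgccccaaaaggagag
Syk: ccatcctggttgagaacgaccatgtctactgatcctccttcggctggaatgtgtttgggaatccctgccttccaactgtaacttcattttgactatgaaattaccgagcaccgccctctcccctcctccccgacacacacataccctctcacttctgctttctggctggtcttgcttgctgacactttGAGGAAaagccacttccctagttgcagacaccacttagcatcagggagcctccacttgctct
Itgam: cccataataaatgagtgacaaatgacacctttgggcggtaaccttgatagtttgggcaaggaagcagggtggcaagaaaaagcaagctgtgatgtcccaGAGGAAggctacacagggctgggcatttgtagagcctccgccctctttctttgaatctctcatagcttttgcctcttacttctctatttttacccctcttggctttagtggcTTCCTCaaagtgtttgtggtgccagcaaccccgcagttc
The Csf3r window had 1 match, starting 160 bases before the start, and the Syk window had 1, starting 62 bases before it. The Itgam window had 2, at 151 bases on the strand of the gene and at 39 bases on the other strand. All 3 windows held the motif, which was present in 7812 of 33469 RefSeq promoters of this length (23.3%) and in 22.9% of the 2206 that belong to circRNA hosts of these libraries. A match is a description of the letters and does not show binding.

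All 9 circRNAs were listed at 0 in both sham libraries and had reads in at least 1 crush library. The genes were chosen on this contrast, so nothing is read from it, and shares of all circRNAs for stricter patterns follow below. A 0 in a sham library was common, since sham replicates 1 and 2 listed 1704 and 1711 of all 4942 circRNAs. Together the 9 circRNAs had 53 reads in crush replicate 1 and 49 in crush replicate 2. In SRPBM, the deposited junction signal scaled to the size of the library, the sum was 3.84 and 2.93, a mean of 3.39 ± 0.65 (SD, n = 2). These reads were 0.642% (95% exact Clopper-Pearson interval 0.482% to 0.839%) and 0.543% (0.402% to 0.717%) of the junction reads of the crush libraries. Intervals cover counting error only. Csf3r gave 52.8% of the reads of the 5 hosts in crush replicate 1 and 32.7% in crush replicate 2, and Syk gave 24.5% in each. A circRNA appears in the files with 0 or with at least 2 reads, so a 0 means that it was not reported and can hide reads.

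The 4 libraries held 8250 to 9027 junction reads and 1704 to 2022 listed circRNAs each, so the members are seen through few reads. Of the 9 member circRNAs, 5 were listed in both crush libraries and not in either sham library, a pattern found in 4.51% of all circRNAs. These same 5 are the members whose crush libraries both lay above both sham libraries, as in 6.48% of all circRNAs. At the host level, 4 of 5 genes had both crush libraries above both sham libraries, against 11.6% of all 2327 hosts, and 4 were listed in both crush libraries and at 0 in both sham libraries, against 6.27%. The opposite pattern, listed in both sham libraries and at 0 in both crush libraries, held for 4.94% of hosts. Since the genes were chosen on this contrast, nothing is read from these shares. In bulk tissue, more cells of a type and more RNA per cell cannot be told apart, and junction reads alone do not separate more host transcript from more circularisation.

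**Figure D1:**
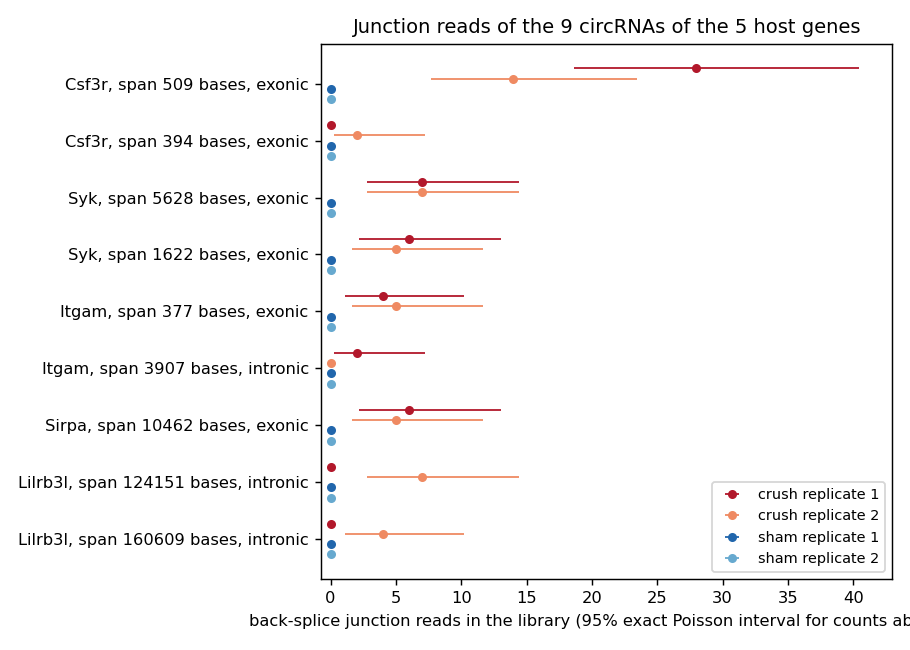
Junction reads (horizontal axis) of the 9 circRNAs (rows, named by host, span and class) in the 4 libraries, with 95% exact Poisson intervals for counts above 0. The Csf3r circRNA with a span of 509 bases had 28 and 14 reads after crush, no other had more than 7 in a library, and all were listed at 0 after sham.

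Csf3r (ENSRNOG00000008759), the growth factor receptor, had the most reads of the 5 hosts. Its exonic circRNA at chromosome 5, 144038462 to 144038971 (Rnor_6.0, plus strand), had 28 reads in crush replicate 1 and 14 in crush replicate 2, and 0 in sham replicates 1 and 2. In SRPBM these were 2.03 and 0.837, and crush replicate 1 was the higher. The 95% exact Poisson intervals of the crush counts, 18.6 to 40.5 and 7.65 to 23.5 reads, overlapped. A second exonic circRNA, at 144045529 to 144045923, was listed in crush replicate 2 alone, with 2 reads. The first therefore held 42 of the 44 reads of the gene (95.5%). The circRNAs of Csf3r shared neither a start nor an end, and 6558 bases lay between them. Summed over both, Csf3r had 28 and 16 reads after crush, or 1.49 ± 0.76 SRPBM (SD, n = 2). This mean was at least 6.57-fold higher than a floor of 3 reads in each sham library, a bound that holds only if a listed 0 stands for few reads. This bound, like those for other hosts below, leaves out counting error. Without crush replicate 1 the bound was at least 4.21-fold. Csf3r ranked 45th of 1654 hosts with crush reads.

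Itgam (ENSRNOG00000019728), the integrin chain, had few reads that were close in the crush libraries. Its exonic circRNA at chromosome 1, 199529249 to 199529626 (plus strand), had 4 reads in crush replicate 1 and 5 in crush replicate 2, and none in sham. Its second, at 199546192 to 199550099, is classed as intronic and had 2 reads in crush replicate 1 and 0 in the other 3 libraries. The circRNAs lay 16566 bases apart and shared no end. Summed, Itgam had 6 and 5 reads after crush, or 0.435 and 0.299 SRPBM, a mean of 0.367 ± 0.096 (SD, n = 2).

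Syk (ENSRNOG00000012160), the kinase, was the host whose circRNAs were most even. The exonic circRNA at chromosome 17, 12626231 to 12631859 (minus strand), had 7 and 7 reads after crush, and that at 12653918 to 12655540 had 6 and 5. Both were listed at 0 in sham replicates 1 and 2, so both crush libraries lay above both sham libraries, as for 6.48% of all circRNAs. Syk was chosen on this contrast, so nothing is read from it. The circRNAs of Syk lay 22059 bases apart and shared no end, and their spans were 5628 and 1622 bases. Summed, Syk had 13 and 12 reads after crush, or 0.943 and 0.718 SRPBM, a mean of 0.830 ± 0.159 (SD, n = 2), at least 3.65-fold above the sham floor. Syk ranked 114th of the 1654 hosts with crush reads.

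Sirpa (ENSRNOG00000004763), the CD47 receptor, had a single circRNA, exonic, at chromosome 3, 122130941 to 122141403 (plus strand). Crush replicates 1 and 2 had 6 and 5 reads of it and sham replicates 1 and 2 had 0, the same counts as the sum of Itgam. Its signal was therefore also 0.367 ± 0.096 SRPBM (SD, n = 2), at least 1.61-fold above the sham floor. Without crush replicate 1 the bound was 1.32-fold. The 95% exact Poisson intervals of crush replicates 1 and 2, 2.20 to 13.1 and 1.62 to 11.7 reads, both reached below the 3 reads of the floor.

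Lilrb3l (ENSRNOG00000053260) was the exception among the 5 hosts, with reads in only 1 of the 4 libraries. Its circRNA at chromosome 1, 63760064 to 63884215 (plus strand), had 7 reads in crush replicate 2, and that at 63759850 to 63920459 had 4, and both were listed at 0 in crush replicate 1 and in both sham libraries. The sum of 0 and 11 reads gave 0.329 ± 0.465 SRPBM (SD, n = 2), an SD larger than the mean. Both circRNAs are classed as intronic, and the shorter lies within the longer, with starts 214 bases apart and ends 36244 bases apart. Their spans of 124151 and 160609 bases were longer than 98.1% and 99.4% of intronic circRNAs.

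The start of the Lilrb3l circRNAs lay beside the end of intergenic ones. A pair of circRNAs of no host gene, on the same strand, ran from 63714184 and from 63736954 to a shared end at 63760774, and so overlapped the Lilrb3l circRNAs by 710 to 924 bases. No other circRNA of another host or of no host overlapped a member. The shorter of the pair had 22 and 19 crush reads and none in sham, or 1.37 ± 0.32 SRPBM against 0. The longer had 7 reads in sham replicate 1 and 0 in the other 3 libraries. Crush replicates 1 and 2 had 22 and 30 reads of all 4 circRNAs together, and sham replicates 1 and 2 had 7 and 0. The stretch thus had reads in 3 of the 4 libraries, while the rows named Lilrb3l had them in 1. Reads from near-identical genes of this family can be placed at more than 1 of them, so the origin of these junctions is uncertain.

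**Figure D2:**
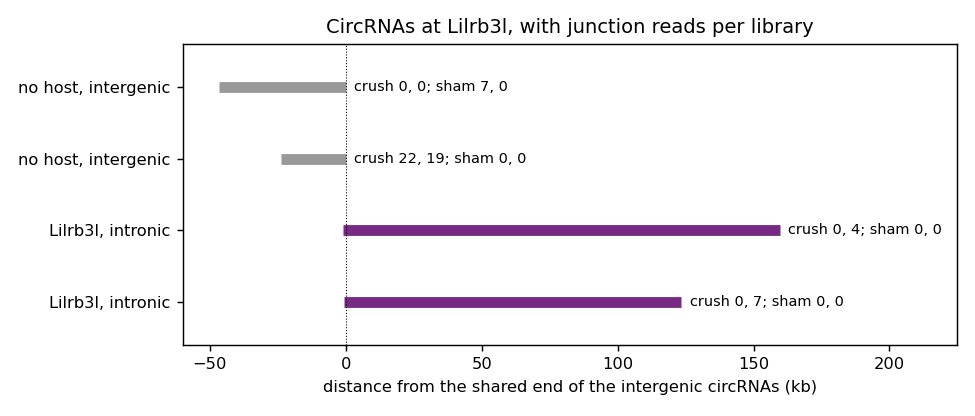
The 4 circRNAs at Lilrb3l, drawn to scale as distance in kb from the end that the intergenic pair share (dotted line), with the junction reads of each in crush replicates 1 and 2 and sham replicates 1 and 2. The intergenic pair lies before this point and the Lilrb3l circRNAs start just before it and run past it for 123441 and 159685 bases.

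By mean crush signal the hosts ran Csf3r (1.49 SRPBM), Syk (0.830), Itgam and Sirpa (0.367 each) and Lilrb3l (0.329). A read counts at 1 junction per circRNA, so these levels are not scaled to a length. Csf3r lay above Syk in both crush libraries, but its lower library (0.957 SRPBM) was close to the higher Syk library (0.943), so their order is within the spread of Csf3r. Syk lay above Itgam and Sirpa in both crush libraries without overlap. Lilrb3l spanned the levels of Itgam and Sirpa, at 0 and 0.658 SRPBM, and so was not separated from them.

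**Figure D3:**
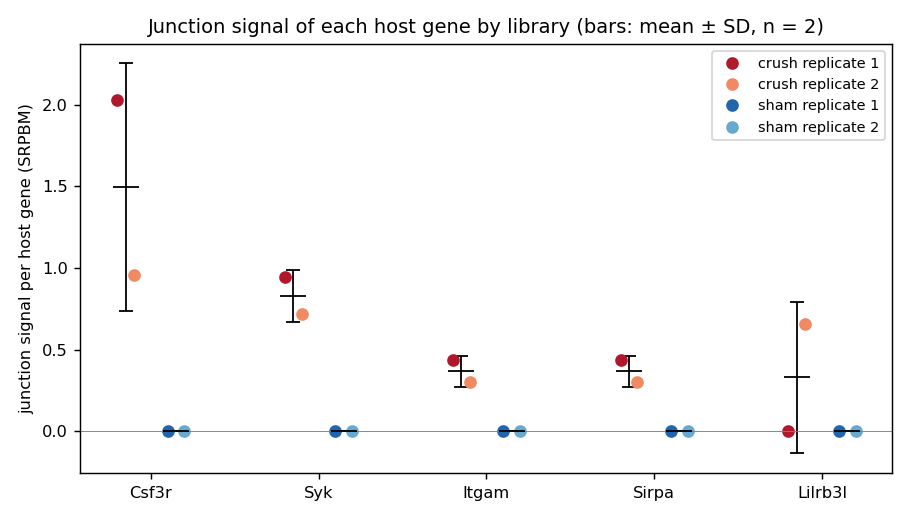
Summed junction signal in SRPBM (vertical axis) of each host gene in each library, with bars for the mean and SD of each group (n = 2). Crush replicate 1 is the higher crush library for Csf3r, Syk, Itgam and Sirpa, and Lilrb3l has signal in crush replicate 2 alone.

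CircRNAs with few reads were often listed in only 1 crush library. Of the circRNAs with 4 to 7 reads in crush replicate 1, 57.8% (237 of 410) were also listed in crush replicate 2, and of those with 4 to 7 in crush replicate 2, 52.7% (243 of 461) were also listed in crush replicate 1. The members in this range were 4 in crush replicate 1, the pair of Syk circRNAs and the exonic ones of Itgam and Sirpa, and all 4 were listed in crush replicate 2. In crush replicate 2 there were 6, and the 2 that were not listed in crush replicate 1 were those of Lilrb3l. The genes were chosen with their crush reads known, so nothing is read from how often the members were listed again. With 2 or 3 reads, 22.4% and 18.1% of circRNAs were listed again, and the second circRNAs of Csf3r and Itgam, 1 in each library, were not. Listing at 0 after sham was also common at these depths. Among circRNAs listed in both crush libraries with 5 to 9 crush reads in all, the range of the exonic Itgam circRNA, 42.5% (128 of 301) were at 0 in both sham libraries, and the converse share, at 0 in both crush libraries, was 40.8% (115 of 282). With 10 to 14 reads, the shares were 28.4% (42 of 148) and 19.4% (26 of 134). The circRNAs of Syk, with 14 and 11 crush reads, and of Sirpa, with 11, fall in this range. At 30 to 60 reads, the range of the main Csf3r circRNA, the shares were 18.6% (8 of 43) and 4.76% (2 of 42).

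The members were mixed in structure. The files class 6 of the 9 as exonic and 3 as intronic, and of all 4942 circRNAs 75.5% as exonic and 9.69% as intronic. Span, the genomic distance from start to end with introns included, ran from 377 to 160609 bases, with a median of 3907 against 8917 for all circRNAs. Of the 6 exonic members, 3 had spans among the shortest 5% of exonic circRNAs, namely those of Csf3r (509 and 394 bases) and the exonic one of Itgam (377). The Syk and Sirpa circRNAs were of intermediate span. No pair of member circRNAs of 1 host shared a start or an end, so each circRNA of a host had its own pair of ends.

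**Figure D4:**
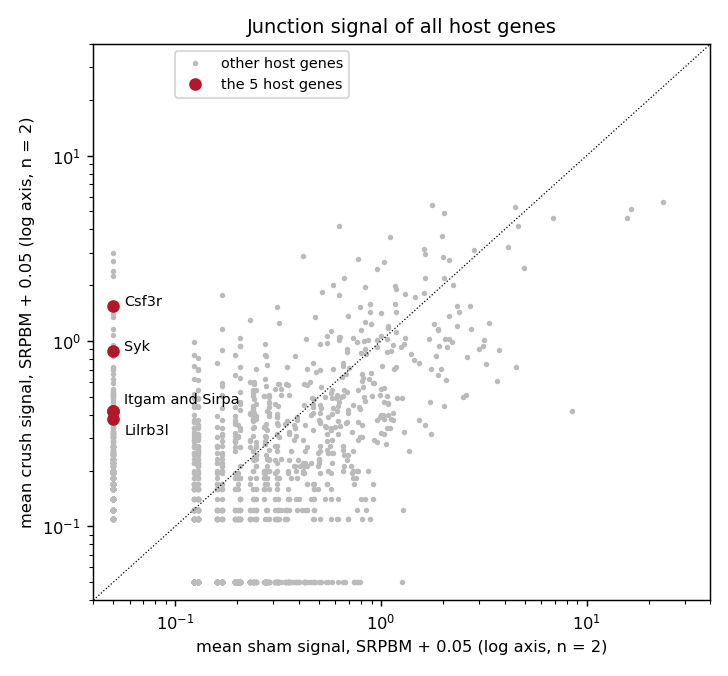
Mean crush against mean sham junction signal of all 2327 host genes (grey) and the 5 hosts (red), in SRPBM plus 0.05 on log axes (n = 2 per group), with the line of equal signal dotted. The 5 hosts lie on the left edge, where sham signal is 0, and Csf3r is among the higher hosts there.

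The hosts whose levels over the 4 libraries lay nearest, by Euclidean distance in SRPBM, were of several kinds. Nearest to Csf3r were Mbd2, a reader of methylated DNA, with 26 and 18 crush reads and 4 and 3 sham reads (distance 0.419), and Mgam, maltase-glucoamylase, with 23 and 21 and none after sham (0.470). Nearest to Syk were Ipcef1 with 14 and 13 reads and none after sham (0.0940) and Dot1l, a histone H3 methyltransferase, with 11 and 12 against 0 and 2 (0.214). Itgam and Sirpa, having equal counts, shared their neighbours. These were Adgre5, which encodes the leukocyte adhesion receptor CD97 and had the same 6 and 5 reads and none after sham (0), and Ints6, a subunit of the Integrator complex, with 6 and 4 (0.0598). Nearest to Lilrb3l were Col18a1, a basement membrane collagen, with 0 and 9 reads (0.120), and Nek10, a kinase, with 2 and 11 (0.145), none of them after sham.

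Other genes of the same pathways were read from 5 lists, the members left out. The lists were drawn up with results of these data known, among them the values of Mgam, Dock8, Arhgap15, Nampt, Mctp1 and Cd44, so they are no independent evidence of a direction. Of 158 listed genes, 34 had junction reads, namely 125 and 149 crush reads and 17 and 10 sham reads. The crush sum was 8.99 ± 0.11 SRPBM and the sham sum 1.01 ± 0.32 (SD, n = 2 each). Both crush libraries lay above both sham libraries for 13 of the 34, against 11.6% of all hosts, and below them for 1, against 11%. Without the 6 genes named above it was 7 of 28 (25%). These come from the same lists and are no independent evidence either. Only 7 of the 34 had enough reads to be tested, at least 5 in at least 2 libraries, and 1 of these rose and none fell (edgeR quasi-likelihood test with Benjamini-Hochberg adjustment over 434 hosts). Over all 434 hosts tested, 8 rose (1.84%) and 2 fell (0.461%), or 8 and 6 with library totals from the SRPBM constants. But all 7 had at least 5 reads only in crush libraries, and so entered the test only through their crush reads. Of these, 4, Mgam among them, were at 0 in both sham libraries. Nothing is read from the calls of the 7.

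Partners of the Syk kinase had few junction reads. Of 38 listed genes 7 had any, with 11 and 18 reads after crush and none after sham, and none could be tested. Both crush libraries lay above both sham libraries for 3 of the 7, against 11.6% of all hosts. The most were 6 reads each in Cblb, a ubiquitin ligase that restrains receptor signalling (2 and 4 after crush), Tec, a tyrosine kinase (2 and 4), and Vav3, a guanine nucleotide exchange factor (4 and 2). Lyn, the Src-family kinase that phosphorylates such motifs, had 0 and 4. Fcer1g and Tyrobp, the adaptors that recruit Syk, had none in any library.

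The pathway of the G-CSF receptor was also thinly read. Of 19 listed genes 6 had reads, 10 and 7 crush reads in all and 4 and 0 sham reads, and 0 of the 6 had both crush libraries above both sham libraries, against 11.6% of all hosts. Jak1 and Jak2, kinases that act with cytokine receptors, had 4 and 0 reads each after crush and Gab2, a docking protein, had 0 and 4. Grb2, an adaptor, had its 4 reads in sham replicate 1. Csf3, the gene of the ligand, and Stat3 had none in any library, and Stat5b had 0 and 3 after crush.

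Cd47 and Apbb1ip had the most reads among the genes listed for the integrin and the inhibitory receptors. Cd47, which encodes the ligand of Sirpa, had 10 and 25 crush reads and 0 and 3 sham reads. Its log2 change was 3.62 ± 1.03 (SE), which missed the threshold (adjusted p = 0.0836, edgeR). Apbb1ip, the adaptor RIAM that links Rap1 to talin when integrins such as Mac-1 are activated, had 12 and 17 crush reads and 2 and 0 sham reads. Its log2 change of 3.90 ± 0.97 (SE) missed the threshold too (adjusted p = 0.0836, edgeR). For both genes each crush library lay above each sham library, as for 11.6% of all hosts. Both were named for having the most reads and entered the test only through their crush reads, so nothing is read from this order. Over the alternatives with all 4 libraries, the adjusted p ran from 0.0103 to 0.452 for Cd47 and from 0.0243 to 0.418 for Apbb1ip (edgeR and DESeq2). The log2 change of Cd47 was 7.19 without sham replicate 2 and 2.47 without sham replicate 1. That of Apbb1ip was 6.86 without sham replicate 1 and 2.96 without sham replicate 2. The values 7.19 and 6.86 each rest on 1 sham library with 0 reads of the gene, so their size is not read. Rap1a, the small GTPase of the same step, had 8 and 4 reads against 2 and 0, and Pxn, paxillin of focal adhesions, had 0 and 4 against none. Itgb2, the beta chain that pairs with the Itgam product, had no junction reads in any library. Ptpn6 and Ptpn11, which encode the phosphatases recruited by Sirpa, had none either, and Inpp5d, a lipid phosphatase gene, had 0 and 3 after crush.

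Among the 53 genes of the myeloid list, 16 had reads, 74 and 71 in crush and 9 and 7 in sham libraries. Mgam, the neighbour of Csf3r and the 1 list host past the threshold, had 23 and 21 reads against none, and it has close relatives that leave the host uncertain. Dock8, an exchange factor of leukocyte migration, had 8 and 12 reads against none, and Mctp1, a calcium-binding membrane protein, had 7 and 9 against 3 and 3 (adjusted p = 0.248, edgeR). Like Mgam and Dock8, Mctp1 entered the test only through its crush reads. The 1 gene in the opposite order was Elmo1, a partner of Dock proteins, with no crush reads and 4 and 2 in the sham libraries.

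**Figure D5:**
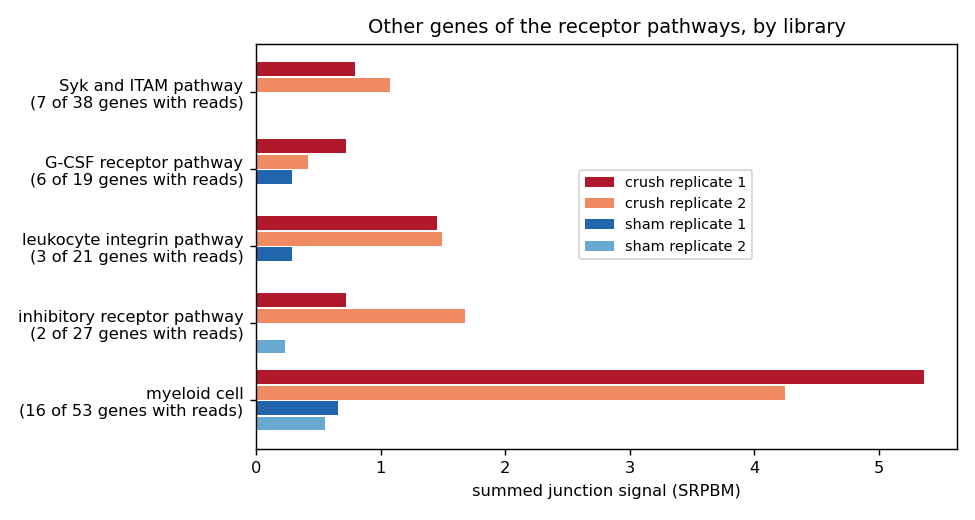
Junction signal in SRPBM (horizontal axis) summed over the genes with reads of each of the 5 lists, with 1 bar for each library. The myeloid list has 5.37 and 4.25 SRPBM after crush and 0.656 and 0.551 after sham, and the Syk and ITAM list has none after sham.

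Marker genes of cell types gave little junction signal to set beside these results. None of 10 neutrophil markers, S100a8, S100a9, Mpo and Elane among them, was listed with a read in any library. Of 8 macrophage markers 1 had reads, Mrc1, with 2 in sham replicate 2, while Csf1r, Cd68 and Adgre1 were at 0. For Schwann cells 3 of 14 markers had reads, and the summed signal was 0 to 0.145 SRPBM after crush and 0.219 to 0.708 after sham, so the tissue label could hardly be checked on circRNAs. Skeletal muscle markers (3 of 8 with reads) had 0 to 0.120 SRPBM after crush and 0.219 to 0.551 after sham, and endothelial markers (3 of 6) had 0.478 to 0.580 and 0.510 to 0.708. Fibroblast and perineurial markers (1 of 9, Dcn) had 0 to 0.419 after crush and none after sham, and markers of T, B and mast cells (1 of 9, Kit) had 0 to 0.145 and none. The part of a change in cell types in the reads of Csf3r, Syk, Itgam, Sirpa and Lilrb3l was not tested.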

How the data were processed

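Total RNA libraries of rat sciatic nerve, 2 after crush and 2 after sham surgery, were compared. Each library has a file in which, per the file headers, the authors gave raw back-splice junction read counts and SRPBM, a signal equal to the count times 1 constant per library (0.0598 to 0.0786 per read). The genome build Rnor_6.0 and the tools BWA, CASAVA 1.8 and edgeR are named in the submitters' processing notes, with no step. The circRNA caller and the base convention of the coordinates are not given in the sources used here.

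Host symbols were read from the host column, and the 3 circRNAs with 2 hosts stayed out of host sums. Host sums and circRNAs with at least 5 reads in at least 2 libraries (434 of 2327 and 428 of 4942) were tested with edgeR 4.0.16 (R 4.3.3), TMM scaling over the features tested, quasi-likelihood test, two-sided, Benjamini-Hochberg threshold 0.05. Of the members 4 of 5 hosts and 4 of 9 circRNAs passed this filter, through crush reads alone, and no test of them is given. DESeq2 1.42.0, other filters, other scalings, a replicate block and leaving out each library were the alternatives. The test was tested on simulated counts with 8-fold changes and recovered 94.6% of changed hosts and 93.3% of changed circRNAs. It made 18 false calls among hosts and 18 among circRNAs, summed over the draws. The simulated spread between replicates was set in advance and not estimated from these libraries, so these shares need not hold here. P-values measure the spread between these libraries, which may be technical.

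Members, lists and tests were chosen with earlier results of these data known. Named are the 5 hosts, their circRNAs and overlapping circRNAs, the 2 nearest hosts of each, and of each list the 3 hosts with most reads (all 4 where tied) plus any past the test. Other genes, such as Lyn, Elmo1 and those at 0, were named after their values were seen.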

Additional observations from a re-analysis of the deposited data

How the results depend on the processing

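The summed crush minus sham signal of the 5 hosts, 3.39 SRPBM, ranged from 2.93 to 3.92 over its alternatives. With 2 libraries a group and sham at 0, leaving out a library cannot move such a value by 1 SD, so this is no sign of stability. Without crush replicate 2 Lilrb3l had no signal. The counts past the threshold changed with most settings (edgeR unless named).

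With at least 2 reads in 2 libraries, 0 of 1355 circRNAs and 0 of 1125 hosts passed (434 and 293 with unadjusted p under 0.05), and 0 of 15 list hosts (11 unadjusted). With at least 10, 23 circRNAs, 44 hosts and 3 list hosts passed, and with no filter 39 hosts and 4 list hosts. The DESeq2 test called 30 circRNAs, 32 hosts and 5 list hosts. Library sizes from before the filter, an alternative chosen after seeing the data, left 0 hosts (108 unadjusted) and 0 list hosts (6 unadjusted). Leaving out 1 library gave 6 to 76 circRNAs (6 without either crush library), 0 to 84 hosts (0 without crush replicate 2, 84 without sham replicate 2) and 1 to 5 list hosts, which could not be tested without either crush library, where too few reads were left. Cd47, which entered the main test only through its crush reads, had a log2 change of 7.19 without sham replicate 2. That left only sham replicate 1, with 0 reads of Cd47. The causes of these shifts were not tested.

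The replicate numbers are only labels here, with a correlation of replicate differences between groups of -0.11 over circRNAs and -0.06 over hosts. With the number as a replicate block, 0 circRNAs (53 unadjusted), 24 hosts and 2 list hosts passed. With crossed pairing, chosen after seeing the data, 0 circRNAs (62 unadjusted), 0 hosts (46) and 0 list hosts (2) passed. SRPBM totals moved the median log2 change of hosts from 0.11 to -0.30. With 8250 to 9027 junction reads a library, depth limits every value of a member.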
